A study of Homo sapiens with 3 samples.

Results

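The EGF family and neuregulin ligands are the secreted or membrane-anchored growth factors that bind EGFR and its relatives. The 10 ligand genes EGF, TGFA, AREG, EREG, HBEGF, BTC, EPGN, NRG1, NRG2 and NRG4 were picked out of the files by symbol, and the rule itself uses no measured value, though the set was proposed with earlier results of these data known. They account for 10 of the 43316 genes and 14 of the 58200 probes on the arrays. Expression was measured in 3 lines by Agilent single-color microarrays, with 1 array per line. H1975 is a human non-small cell lung cancer line that carries an activating mutation together with a resistance mutation in EGFR, and it is sensitive to osimertinib, an EGFR inhibitor. OR1 and OR2 are osimertinib-resistant clones that were selected from H1975 independently of each other, with stepwise doses of the drug that ended at 2 µmol/L. Each resistant line is therefore the result of a single selection, and both derive from the EGFR-mutant H1975. The sources used here do not say whether the drug was in the medium when RNA was taken.

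These ligands are made as precursors that span the plasma membrane. Metalloproteases of the ADAM family cut most of them off, and the freed ligand makes its receptors pair and signal through the RAS and PI3K pathways. EGF, TGFA, AREG and EPGN bind EGFR, whereas HBEGF, BTC and EREG bind both EGFR and ERBB4. NRG1 and NRG2 bind ERBB3 and ERBB4, and NRG4 binds ERBB4. In lung epithelium these factors are known for their part in growth and repair.

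Across the ligand set, AREG was lower and HBEGF was higher in both OR1 and OR2 than in H1975. NRG1 was higher in OR1 and EREG was lower in OR1, and neither passed the same ratio in OR2. BTC was faint and passed the ratio in OR2 only as a bound. TGFA differed by less than the ratio used in both lines. Transcripts of EGF, EPGN, NRG2 and NRG4 were not well above background on any array.

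Promoter sequences are shown for AREG, EREG and HBEGF, 3 of the ligands past the ratio. Each run holds the 250 bases before the transcription start, read 5′ to 3′ on the gene's own strand, from RefSeq on GRCh38.p14. Capitals mark every match, on either strand, to 6 motifs, namely the TATA box (TATAAA), the cyclic AMP response element (TGACGTCA), the AP-1 site (TGACTCA or TGAGTCA), the TEAD site (GGAATG), the GC box (GGGCGG) and the E-box bound by ZEB factors (CACCTG).
AREG promoter, chr4:74444886-74445135, plus strand: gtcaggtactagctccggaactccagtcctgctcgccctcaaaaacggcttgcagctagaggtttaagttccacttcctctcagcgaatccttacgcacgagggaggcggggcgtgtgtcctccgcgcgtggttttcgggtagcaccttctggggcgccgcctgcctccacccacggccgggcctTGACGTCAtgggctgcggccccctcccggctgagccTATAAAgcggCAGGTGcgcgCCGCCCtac
EREG promoter, chr4:74364895-74365144, plus strand: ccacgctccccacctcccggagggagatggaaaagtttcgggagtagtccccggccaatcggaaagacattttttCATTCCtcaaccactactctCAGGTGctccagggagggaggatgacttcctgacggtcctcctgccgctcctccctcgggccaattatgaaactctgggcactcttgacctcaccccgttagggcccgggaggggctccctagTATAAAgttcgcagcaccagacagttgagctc
HBEGF promoter, chr5:140346604-140346853, minus strand: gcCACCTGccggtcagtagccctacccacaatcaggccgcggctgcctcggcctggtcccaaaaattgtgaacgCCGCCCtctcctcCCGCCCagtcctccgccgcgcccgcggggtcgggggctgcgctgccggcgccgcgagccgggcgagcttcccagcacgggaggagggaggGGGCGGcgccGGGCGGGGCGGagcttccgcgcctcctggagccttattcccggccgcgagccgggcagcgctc

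The AREG and EREG windows both held a TATA box, which began 29 bases before the start in AREG and 32 bases before it in EREG, and the HBEGF window held none. Over 35116 promoter windows of the same length, 10.72% held this motif. The cyclic AMP response element of AREG began 65 bases before the start, and 1.646% of all windows held one. HBEGF had 5 GC boxes, a motif found in 42.64% of windows, and 2 of them overlap by a single base. The E-box stood in all 3 windows and in 17.49% of all promoters, and the TEAD site stood in EREG and in 11.89% of all promoters. GC content was 65.2% in AREG, 58% in EREG and 76.4% in HBEGF. No AP-1 letters were found in these windows, and 4.203% of all windows held them. Such a match is a description of the letters and no evidence of binding.

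A few array-wide values set the scale of what follows. Each spot's intensity, its background-corrected brightness, was divided by its array's 75th percentile, between 138.1 and 161.8, to give the scaled intensity. The software called 45.57% to 45.94% of probes well above background on the 3 arrays, and the lowest such intensity lay between 11.4 and 12.62. A gene that was well above background on 1 side only has a bound in place of a ratio. The technical SD of a log2 ratio is propagated from the software's error for each spot. It reflects how well 1 RNA sample was measured, not how cultures vary, so a ratio of 1 array to 1 array carries no p-value here, and the number of arrays limits the precision. Following the methods, a gene was called higher at a ratio of at least 2 and lower at a ratio of at most 0.5.

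**Figure D1:**
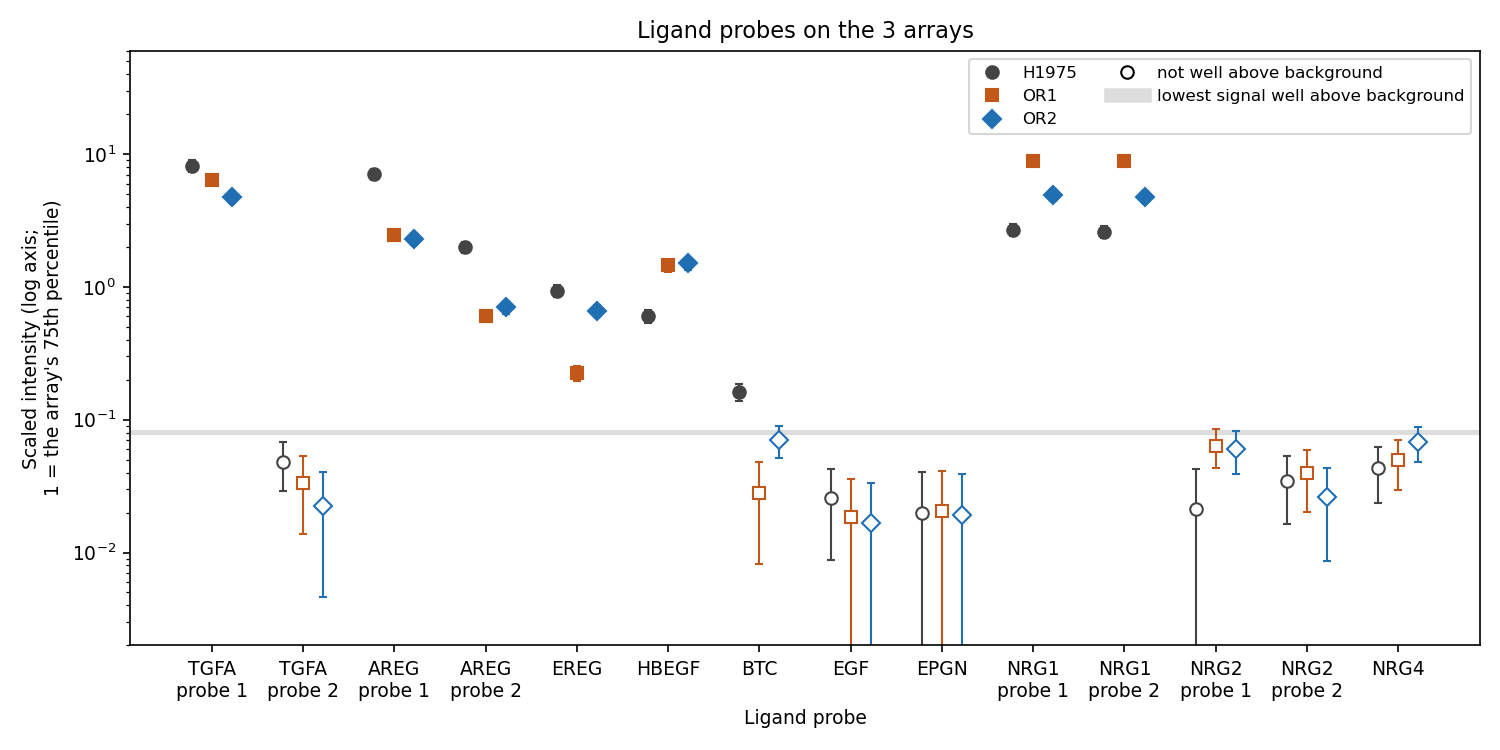
Scaled intensity on a log axis (1 is the 75th percentile of the array) of the 14 ligand probes in H1975 (circles), OR1 (squares) and OR2 (diamonds), with the software's error as bars and open symbols where a spot was not well above background. Bars that reach 0 run off the axis, and levels of different probes cannot be compared. Both AREG probes are lower and HBEGF and both NRG1 probes are higher in the resistant lines, and the open symbols lie at or under the gray band of the lowest signals well above background.

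Among the 10 ligand genes, 5 had signal well above background on every array and 6 on 1 or more. Only those 6 could be called. A gene was counted as tested when it was well above background on at least 1 of the arrays compared. In OR1, 2 ligands were higher than in H1975, against 9.17% of all genes tested, and 2 were lower, against 9.58%. In OR2, 1 ligand was higher, against 7.72%, and 2 were lower, against 8.70%. In both lines together, 1 ligand was higher, against 5.09% of all genes tested, and 1 was lower, against 6.32%. The median log2 ratio over the 5 ligands measured on all arrays was -0.34 in OR1 and -0.51 in OR2, and over all genes it was 0.03 and -0.06. With so few members, these counts say only which genes passed.

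AREG encodes amphiregulin, an EGFR ligand that many epithelial tumors use to stimulate themselves. The probe used (NM_001657) lies on chromosome 4 of hg19 from 75320518 to 75320577 on the plus strand. Its intensity was 1114 in H1975 against 342 in OR1 and 373 in OR2, which gave scaled intensities of 7.07, 2.48 and 2.31. Under the scaling used here, both resistant lines were low and close to each other. Relative to H1975, OR1 stood at 0.351 and OR2 at 0.326, each log2 ratio with a technical SD of 0.20. The ratio of OR2 to OR1 was 0.929.

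A second AREG probe, 2.225 kb upstream at 75318293 to 75318352, reads the coding sequence near its end. Its 60 bases are shown because both probes turned the same way at separate places in the transcript.
AREG second probe: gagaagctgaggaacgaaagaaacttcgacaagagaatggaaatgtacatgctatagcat
It read 313 in H1975 against 83.9 in OR1 and 114 in OR2. The ratio was 0.306 in OR1 and 0.354 in OR2, so both probes passed the ratio in both lines. The RefSeq table lists AREGB, the symbol of an AREG copy in older builds, as a synonym of AREG. Signal from such a copy could not be told apart from that of AREG. AREG stayed at or under 0.370 in both lines under every alternative processing that gave a ratio.

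EREG encodes epiregulin and lies beside AREG on chromosome 4. Its single probe (NM_001432, 75254009 to 75254068, plus strand) read 147 in H1975, only 31.2 in OR1 and again 106 in OR2. Scaled intensities were 0.935, 0.226 and 0.657. OR1 was the low array, and OR2 lay nearer to H1975 than to OR1. The ratio to H1975 was 0.242 in OR1, a log2 ratio of -2.05 with a technical SD of 0.24. In OR2 the ratio was 0.702, and its distance from 1 was 2.44 technical SDs.

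EREG was also the only ligand called different between the resistant lines under the scaling used here. Its level in OR2 was 2.90 times that in OR1, with a technical SD of 0.24 in log2. It was the 1 ligand called higher in OR2 than in OR1, against 2.48% of all genes tested. No ligand was called lower in OR2 than in OR1, against 2.89% of all genes tested. With normexp, another background correction, the ratio of OR2 to OR1 was 1.67 and the ratio of OR1 to H1975 was 0.473. On spike-in scaling, which uses the control RNA added to each sample, the ratio of OR2 to OR1 was 4.62.

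BTC encodes betacellulin, and its probe (NM_001729, 75675838 to 75675897 on chromosome 4, minus strand) was faint. The intensity of 25.6 in H1975 compared with 3.90 in OR1 and 11.5 in OR2, and only H1975 was well above background. The resistant lines therefore have bounds. The ratio of OR1 was at most 0.508, just outside the limit, and that of OR2 at most 0.479, which passed it. In OR2 the bound was 0.801 with normexp, 0.5053 with spike-in scaling and 0.5047 with the percentile over probes well above background. This call thus depends on the treatment of the background and on the scaling. EPGN, which encodes epigen and lies on the far side of EREG, read between 2.85 and 3.15, with no array well above background.

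TGFA encodes transforming growth factor alpha, a close relative of EGF. The probe used (NM_003236) lies on chromosome 2 of hg19 from 70683472 to 70683531 on the minus strand. It is printed because the other TGFA probe gave no signal, and from textbook knowledge it reads the codons of the membrane-spanning stretch.
TGFA probe used: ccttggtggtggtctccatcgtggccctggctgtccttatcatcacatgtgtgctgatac
H1975 had an intensity of 1286, OR1 of 888 and OR2 of 773, with scaled intensities of 8.17, 6.43 and 4.78. Both resistant lines were lower than H1975 without passing the ratio. The ratio was 0.788 in OR1, 1.69 technical SDs from 1, and 0.585 in OR2, 3.79 technical SDs from 1. The other TGFA probe, 8.153 kb nearer the 3′ end, read 7.61, 4.62 and 3.65, with no array well above background, so it gives no ratio. The order of OR1 and OR2 was not stable for TGFA, since the ratio of OR2 to OR1 ran from 0.742 to 1.18 over the scalings tried. For AREG it ran from 0.929 to 1.48.

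EGF, which gives the family its name, read 4.05 in H1975 against 2.54 in OR1 and 2.71 in OR2 (NM_001963, chromosome 4 of hg19 from 110932689 to 110932748). No array was well above background here, so EGF has no ratio.

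HBEGF encodes heparin-binding EGF-like growth factor, whose membrane-bound form also acts on neighboring cells. Its probe (NM_001945) lies on chromosome 5 of hg19 from 139713052 to 139713111 on the minus strand. H1975 had an intensity of 94.8, OR1 of 200.4 and OR2 of 243, with scaled intensities of 0.602, 1.45 and 1.502. Under the scaling used here, both resistant lines were high and close to each other. Relative to H1975, OR1 stood at 2.41 and OR2 at 2.50, each log2 ratio with a technical SD of 0.21, and the ratio of OR2 to OR1 was 1.04.

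The ratio of OR2 to OR1 for HBEGF ran from 1.03 to 1.65 over the scalings tried. The HBEGF call stood close to its limit. Spike-in scaling gave a ratio of 1.60 in OR1, and normexp gave 1.84 in OR1 and 1.91 in OR2, all under 2. The direction was kept under every alternative that gave a ratio, with a range of 1.60 to 2.49 in OR1 and 1.91 to 2.63 in OR2.

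NRG1 encodes neuregulin 1, the main ligand of ERBB3. Both of its probes are annotated to NM_004495 on the plus strand of chromosome 8 of hg19, so other NRG1 transcripts were not told apart. The first maps to the ends of a 111.1 kb span from 32474390 to 32585512 and so crosses a splice junction, and the second lies just downstream, from 32585521 to 32585580. The first probe read 424 in H1975, up to 1230 in OR1 and 802 in OR2, and the second read 408, 1232 and 775. OR1 was the highest array for both probes, and OR2 lay between OR1 and H1975.

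The NRG1 ratio was 3.31 in OR1 and 1.84 in OR2 by the first probe, and the log2 ratio of OR1 had a technical SD of 0.20. By the second probe it was 3.44 and 1.85. NRG1 was thus called higher in OR1 and fell short of the ratio in OR2. The ratio of OR2 to OR1 was 0.557, and it was 0.886 on spike-in scaling. In OR1 the ratio stayed above 2 under every alternative, from 2.19 to 3.42.

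The other neuregulins gave no ratio. NRG2 had 2 probes on chromosome 5, with intensities of 3.34 (H1975), 8.80 (OR1) and then 9.81 (OR2) for one and 5.45, 5.48 and 4.21 for the other. NRG4, on chromosome 15, had 6.81, 6.86 and 11.0. None of these spots was well above background.

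The genes that receive and process the ligands were taken from 3 lists with 38 genes in all, of which 36 had signal well above background on 1 or more arrays. Of these genes, 3 were higher and 4 were lower in both lines, against 5.09% and 6.32% of all genes tested. The count of 4 fell to 3 under several alternative processings. In the list of receptors and their restraints the median log2 ratio was -0.85 in OR1 and -0.74 in OR2. In the list of shedding and trafficking genes it was -0.14 and -0.19, and among adaptors and effectors 0.17 and 0.13.

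**Figure D2:**
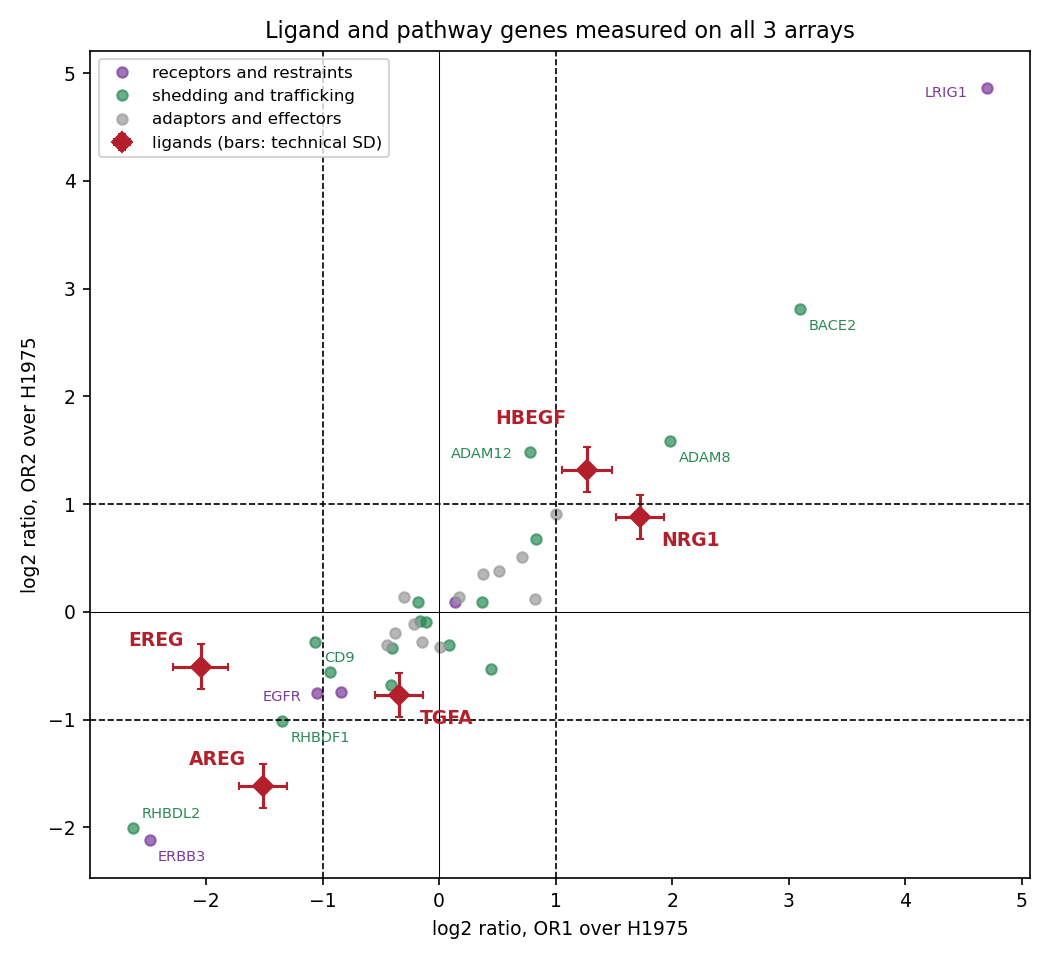
Log2 ratio of OR2 to H1975 against that of OR1 to H1975 for ligands (diamonds, with the technical SD as bars) and for the genes of the 3 pathway lists (circles), all measured well above background on all 3 arrays. Dashed lines mark ratios of 2 and 0.5, and both axes share the H1975 array. AREG lies in the corner lower in both lines, HBEGF in the corner higher in both, and EREG and NRG1 pass a line on the OR1 axis alone.

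Of the receptors, ERBB3, a receptor for NRG1 that signals by pairing with other receptors, read 302 in H1975 against 47.4 in OR1 and 71.5 in OR2. The ratios were 0.179 and 0.230, and another ERBB3 probe gave at most 0.0158 and a value of 0.0212. EGFR, the receptor for the EGF-like ligands, read 846 in H1975 against 358 in OR1 and 515 in OR2. EGFR at 0.483 passed the limit in OR1 and at 0.593 in OR2 did not, while its other probes gave 0.711 and 0.670 for OR1 and 0.929 and 0.420 for OR2.

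ERBB2, which has no ligand of its own and pairs with the other receptors, had ratios of 0.556 and 0.597. A fainter ERBB2 probe turned the other way, with 2.03 and 1.57, so the probes disagree. Transcripts of ERBB4 were not well above background on any array. LRIG1, a membrane protein that restrains EGFR family receptors, read 54.2 in H1975 against 1236 in OR1 and 1613 in OR2, ratios of 26.0 and 29.0. ERRFI1, an intracellular inhibitor of EGFR, stayed near 1 with 1.101 and 1.07.

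**Figure D3:**
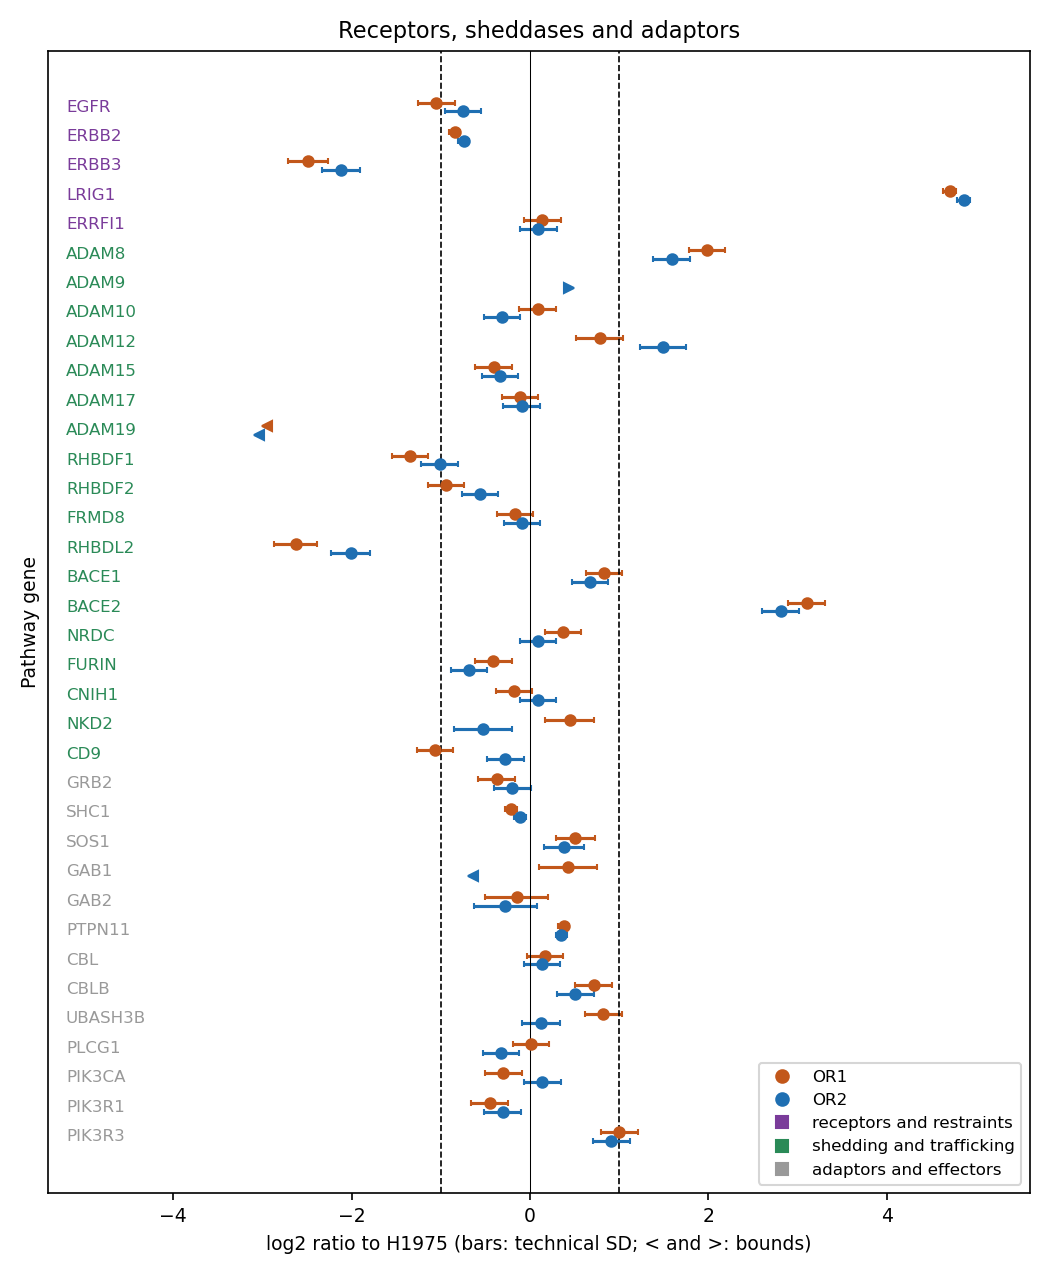
Log2 ratio to H1975 in OR1 (orange) and OR2 (blue) of the 36 pathway genes with signal, with the technical SD as bars and triangles for bounds. Gene names are colored by list, and dashed lines mark ratios of 2 and 0.5. LRIG1, BACE2 and ADAM8 lie beyond the upper line in both lines, and ERBB3, ADAM19, RHBDF1 and RHBDL2 beyond the lower line.

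Of the shedding and trafficking genes, ADAM17, the main sheddase of AREG, EREG, HBEGF and TGFA, had ratios of 0.927 and 0.936. ADAM10, the main sheddase of EGF and BTC, had 1.06 and 0.805. Both stood near the level of H1975. RHBDF1, whose product iRhom1 carries ADAM17 to the cell surface, was called lower in both lines, with 0.394 and 0.496, the latter just inside the limit, and its partner RHBDF2 gave 0.521 and 0.680.

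Other proteases differed more. RHBDL2, an intramembrane protease known to cut EGF, was lower with 0.162 in OR1 and 0.249 in OR2, and its other 2 probes ran from 0.163 to 0.339. ADAM19, a protease known to cut NRG1, had bounds of at most 0.130 (OR1) and 0.122 (OR2). BACE2, a relative of the NRG1-cutting protease BACE1, was higher with 8.58 and 7.02, and BACE1 itself gave 1.78 and 1.59. ADAM8 was higher by its brightest probe, with 3.95 and 3.01, and a second probe passed the ratio too, with at least 3.26 and at least 2.03. The remaining ADAM8 probe gave 1.55 and 0.868. CD9, a membrane protein that associates with the HBEGF precursor, had 0.479 in OR1 and 0.826 in OR2.

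No adaptor or effector was called higher or lower in either resistant line against H1975 among 13 listed. Over all genes tested, 9.17% were higher and 9.58% lower in OR1, and 7.72% and 8.70% in OR2. With so few genes, the absence of calls says only that none passed. The nearest to the limit was PIK3R3, a regulatory subunit of PI3K, with 1.999 in OR1 and 1.88 in OR2. GRB2, which links receptors to RAS activation, had 0.771 and 0.873. GAB1, a docking protein, was lower in OR2 than in OR1, at most 0.479, and was not well above background in OR2.

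EPGN, EREG, AREG and BTC lie within 497.1 kb on chromosome 4. Within 1 Mb of this cluster the arrays held 47 other genes, of which 11 were measured on all 3 arrays. The median log2 ratio of those 11 was 0.44 in OR1 and 0.53 in OR2, above 0, whereas AREG and EREG lay below it. CXCL2, a chemokine gene on the EREG side of AREG, had ratios of 6.39 and 7.57. The noncoding transcript lnc-BTC-5, between AREG and BTC, was lower with 0.439 and 0.460, and its second probe gave 0.527 and 0.582. Within the margin, RCHY1 was also higher in both lines and C4orf26 was also lower in both.

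**Figure D4:**
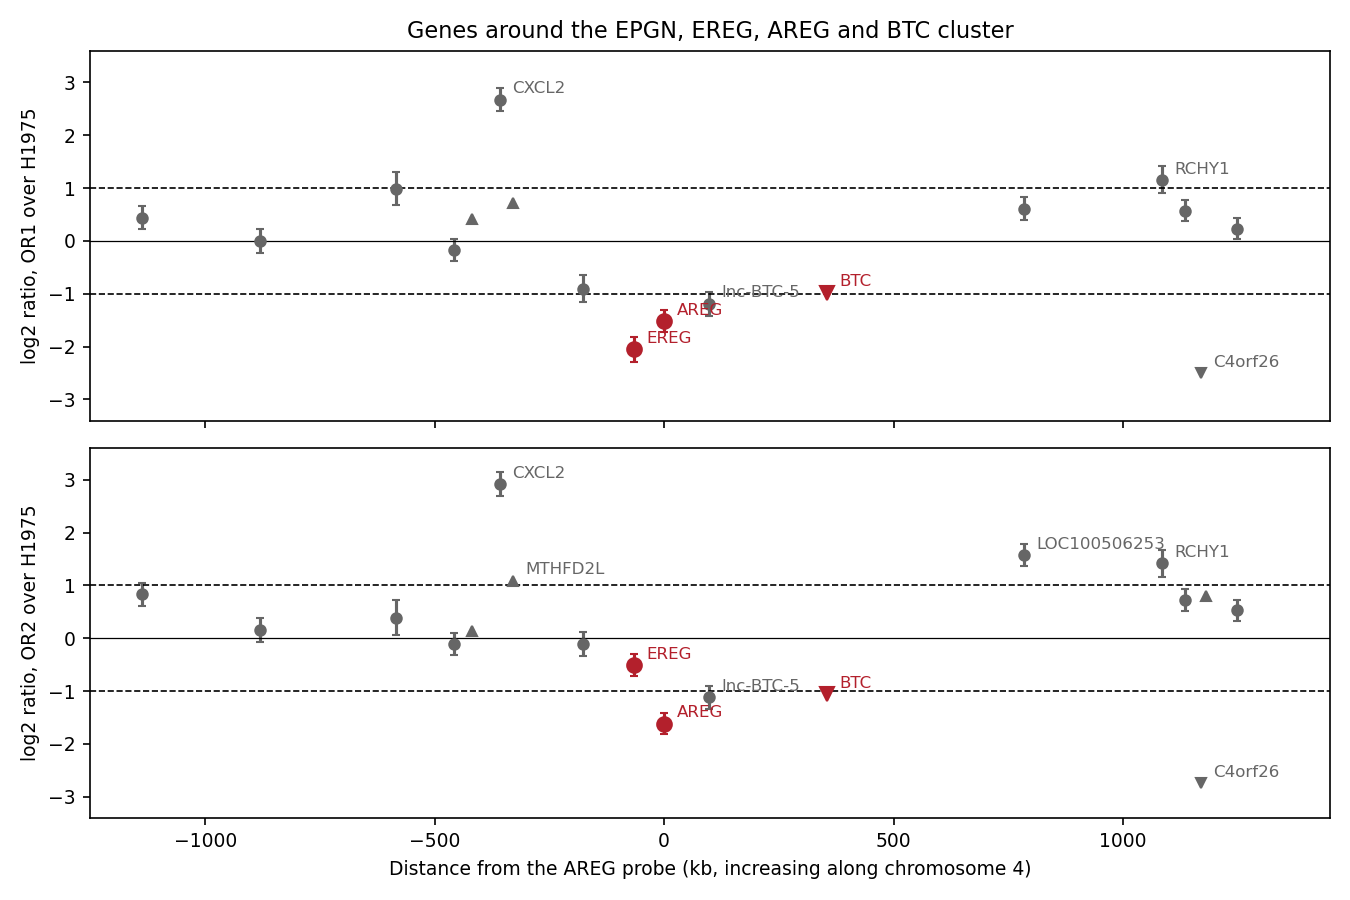
Log2 ratio to H1975 in OR1 (top) and OR2 (bottom) of genes around the ligand cluster, against the distance of their probe from the AREG probe in kb. Ligands are red, other genes gray, bars are the technical SD and triangles are bounds. In both lines AREG and lnc-BTC-5 lie under the lower dashed line (ratio 0.5), CXCL2 lies above the upper one (ratio 2), and EREG is under the lower line in OR1 alone.

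The genes whose pattern over the 3 arrays was most like that of a ligand were found by the Euclidean distance of mean-centered log2 values, over 18584 genes. For AREG these were CGB, ALPK3 and B3GNT7, with distances from 0.011 to 0.041. For EREG they were EVI2B, RNLS and HOXB9, from 0.067 to 0.111. For HBEGF they were ASB10, TMEM230 and the transcript ENST00000447898, from 0.0068 to 0.011. For NRG1 they were SLPI, lnc-CETP-1 and PCDHGB3, and SLPI had ratios of 3.24 and 1.83. The likeness describes these 3 arrays only.

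The labelled cell type was checked against marker genes, and several of these also differed between the lines. Each array showed all 8 epithelial markers well above background. Of them, 6 were called lower in both resistant lines, against 6.32% of all genes tested. Summed over the 8, scaled intensity was 2945 in H1975 against 1147 in OR1 and 1242 in OR2. EPCAM, an epithelial adhesion gene, had ratios of 0.037 and 0.073, and CDH1, which encodes E-cadherin, had 0.020 and 0.080, while the keratin gene KRT8 gave 1.12 and 0.964. Of 4 lung alveolar markers, 3 had signal, with summed scaled intensities over the list of 5.69, 2.11 and 8.37. The lineage factor NKX2-1 had ratios of 0.252 in OR1 and 1.365 in OR2, called lower in OR1 alone. The surfactant gene SFTPC, faint in H1975 with an intensity of 24.0, was called higher in both lines with 3.78 and 4.87. NAPSA gave 0.770 and 1.565, and SFTPB was not well above background.

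Markers of other cell types were uneven. Of 7 fibroblast markers, 3 were well above background on any array, and COL3A1, DCN, PDGFRA and THY1 were on none. Over all 7, summed scaled intensity was 4.29 in H1975 against 4.98 in OR1 and 0.663 in OR2. Most of it was COL1A1, with 2.93, 4.24 and 0.537. COL1A2 was called lower in both lines, with 0.162 and at most 0.0615. LUM was well above background in OR1 alone, at a ratio of at least 5.425. Of the 4 immune markers on the array, CD3E and MS4A1 were not well above background, PTPRC was near its H1975 level, and CD14 had ratios of 4.25 and 6.56. Of 4 endothelial markers, PECAM1, VWF and CDH5 were well above background on every array and KDR on none. PECAM1 had ratios of 2.10 in OR1 and 1.19 in OR2, called higher in OR1, and the summed endothelial values were 0.586, 0.731 and 0.662. The part of these markers in the ligand values was not tested. In bulk RNA, fewer cells with a transcript and less of it per cell cannot be told apart.

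**Figure D5:**
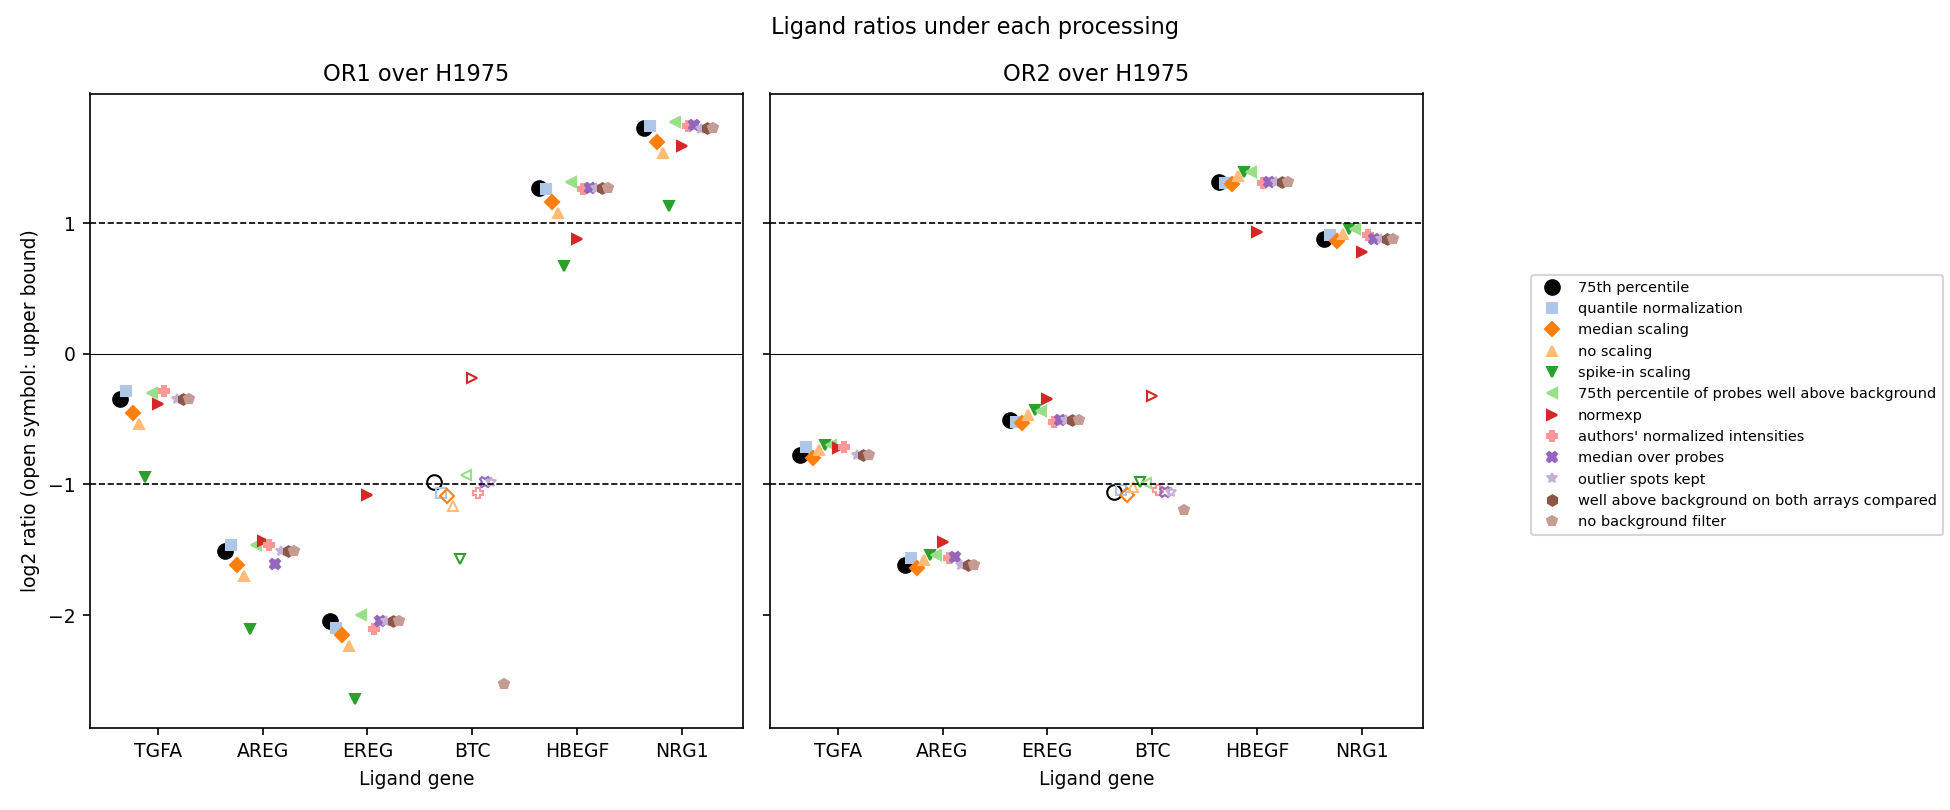
Log2 ratio to H1975 of the 6 ligands with signal, in OR1 (left) and OR2 (right), under the 75th-percentile scaling used here (black) and each alternative processing that gives a ratio. Open symbols are upper bounds, and dashed lines mark ratios of 2 and 0.5. AREG stays under the lower line in both lines and NRG1 above the upper line in OR1 throughout, whereas HBEGF crosses the upper line with normexp and, in OR1, with spike-in scaling.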

How the data were processed

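Complementary RNA of each line was hybridized by the authors to 1 Agilent SuperPrint G3 Human array. The deposited scanner files hold intensity per spot, corrected for background and trends within the array by Feature Extraction (version 10.7.1.1 in the file headers, 9.5.1.1 in the submitters' processing notes). A second deposited table holds normalized intensity with the method not given in the sources used here. On the log2 scale it lay within a median of 0.0013 of quantile-normalized scanner intensities.

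Controls and outlier spots (45 to 61 per array) were left out, repeated spots were averaged as log2, and each array's 75th percentile was subtracted. The brightest probe stood for a gene, and no spot was saturated. A side not well above background was set to the higher of its own value and the lowest signal well above background on that array. Every ligand probe is reported, together with the pathway genes and, for each ligand past the ratio and measured on all arrays, the 3 genes most like it. Members, lists and tests were chosen with earlier results of these data known. Positions of probes come from the files (hg19), and RefSeq held 13 of the 14 ligand probes' accessions. Alternatives were quantile, median, no and spike-in scaling, the percentile over probes well above background, normexp (offset 50), the authors' table, the median over probes, any probe passing, outlier spots kept, other background filters, ratios of 4 and 1.5, and limma with OR1 and OR2 as 2 samples. The counting code was checked on simulated arrays with 4-fold changes planted in 200 genes well over the lowest signal. That does not test calls near the limit or near background. Python 3.11.15, numpy 2.4.6, pandas 2.3.3, R 4.3.3 and limma 3.58.1 were used.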

Additional observations from a re-analysis of the deposited data

Results flagged for a closer look

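Of 12 probes named after a ligand gene without being that gene, 3 had signal well above background on 1 or more arrays. A probe of the noncoding transcript lnc-HBEGF-2 (chromosome 5 of hg19, 139780890 to 139780949, minus strand) drew attention because it lies outside the ligand comparison and was well above background in both resistant lines and not in H1975. It read 9.02 in H1975 against 16.5 in OR1 and 20.1 in OR2. Relative to H1975, OR1 was at least 1.497-fold and OR2 at least 1.559-fold higher, so neither bound reached 2. In log2 these bounds were 0.58 and 0.64, with technical SDs nearly as large, 0.56 in OR1 and 0.54 in OR2. The other lnc-HBEGF-2 probe read 4.17, 2.94 and 3.08 with no array well above background.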

How the results depend on the processing

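Over all alternatives, 182 ligand ratios were recomputed, of which 162 moved by less than 1 technical SD and 20 by more. None of the ratios called higher or lower changed sign. Of the 20, 10 came from spike-in scaling and 5 from normexp. The counts used here were 2 ligands higher and 2 lower in OR1, 1 and 2 in OR2, 1 and 1 in both lines, and 1 higher and 0 lower in OR2 than in OR1. Ligands lower in both lines numbered 2 with quantile normalization, median scaling, no scaling and the authors' normalized intensities, where the BTC bound in OR1 passed 0.5. Ligands lower in OR1 numbered 3 under the same processings, with spike-in scaling, without a background filter and at a ratio of 1.5. Spike-in scaling gave 1 higher in OR1, 1 lower in OR2 and 0 higher in both lines. In OR1 the all-gene median of log2 ratios shifted by -0.60 with spike-ins, by -0.19 without any scaling and by -0.11 on the median. Normexp gave 1 higher in OR1, 0 higher and 1 lower in OR2, 0 higher in both lines and 0 higher in OR2 than in OR1. The percentile over probes well above background, and the filter asking for both arrays, each gave 1 lower in OR2. Without a background filter, 3 were higher in OR1 and 2 in OR2. Without that filter, 2 were also higher in both lines, 2 lower in both lines and 2 higher in OR2 than in OR1. At a ratio of 4, 0 were higher and 1 was lower in OR1, 0 were higher and 0 lower in OR2, 0 were higher and 0 lower in both lines and 0 were higher in OR2 than in OR1. At 1.5, 2 were higher and 3 lower in OR2, and 2 were higher and 2 lower in both lines. Also at 1.5, 1 ligand was lower in OR2 than in OR1. At this ratio 6 pathway genes in place of 3 were higher in both lines, and 6 in place of 4 were lower. Pathway genes lower in both lines numbered 3 with quantile, no and spike-in scaling, the percentile over probes well above background, normexp and the authors' table. The median over probes, the filter asking for both arrays and a ratio of 4 also gave 3. With the median over probes and at a ratio of 4, 2 pathway genes were higher in both lines. In limma with OR1 and OR2 as 2 samples against the lone H1975 array, which is assumed to vary like the others, 0 ligands were higher and 0 lower at an adjusted p under 0.05, and 1 and 2 at an unadjusted p under 0.05. The smallest adjusted p in limma was 0.112, for AREG. The cause of these changes was not tested. No paired analysis was possible because each line has 1 array and the labels give no replicate numbers. Signal over background limits BTC, EGF, EPGN, NRG2 and NRG4. The limma count of lower ligands before adjustment includes BTC (log2 difference -1.86), whose OR1 and OR2 spots were not well above background.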
